A study of Mus musculus with 10 samples.

Results

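The Myb and Myc family as described here comprises 7 transcription factor genes: Myb, Mybl2, Myc, Mycn, Max, Mxi1 and Mxd4. They were taken from the deposited expression table by symbol, without use of their values. The table has 23240 genes and holds all 7. Each of the 7 was also among the 10905 genes with at least 1 RPKM (reads per kilobase of gene, scaled by the mapped reads of the library) in at least 2 libraries, which were tested.

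RNA was sequenced from progenitors sorted from mouse bone marrow, in 10 libraries that form 5 groups of 2. Every animal carried the vav-Cre transgene, Tg(vav-Cre), in which the vav promoter drives Cre recombinase throughout the blood system, so the wild-type libraries carried Cre as well. Wild-type mice were Runx1+/+ (labelled Runx1wt/wt). Runx1-deleted mice were Runx1fl/fl (labelled Runx1Δ/Δ). All gates lay among cells negative for lineage markers, Sca, CD41 and CD105 and positive for Kit. Granulocyte-macrophage progenitors (GMP) were CD16/32+ CD150- and were sorted from both genotypes. Megakaryocyte-erythroid progenitors (MEP) were CD16/32- CD150+ and were also sorted from both genotypes. The cells named XMP were CD16/32+ CD150+, and this gate was sequenced from Runx1-deleted mice alone. Neither the age of the mice nor any pooling is given in the sources used here. Nothing in the labels says that the replicates came from separate animals, and all p-values given here measure only how far these libraries spread, which may be technical.

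MYB is a DNA-binding activator that keeps blood progenitors immature and dividing, and MYBL2 is its relative that works with the MuvB complex to switch on genes of late cell cycle. MYC and MYCN are growth-promoting factors of the basic helix-loop-helix leucine zipper class and bind DNA at E-boxes as dimers with MAX. MXI1 and MXD4 also dimerize with MAX, but recruit SIN3 corepressors and oppose MYC at the same sites. In bone marrow, MYC and MYCN are known to act partly redundantly in stem and progenitor cells.

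Mycn was the member that varied most, so the bases upstream of its start are shown here, from the RefSeq promoter table for GRCm38.p6. The stretch is the 250 bases before the annotated start on the minus strand, chr12:12941837-12942086, written 5′ to 3′ with matches to the E2F letters TTNGCGC in capitals.

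Mycn: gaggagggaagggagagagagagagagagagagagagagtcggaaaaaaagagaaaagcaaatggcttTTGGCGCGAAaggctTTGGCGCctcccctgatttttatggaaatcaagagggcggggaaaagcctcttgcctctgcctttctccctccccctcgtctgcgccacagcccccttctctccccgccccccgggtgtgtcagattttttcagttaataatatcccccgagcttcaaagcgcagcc

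The capitals hold 3 overlapping or neighbouring matches on either strand, at 182 to 176, 179 to 173 and 167 to 161 bases before the start. The same letters occurred on either strand in 5.19% of the 32817 promoter stretches of this length, and among the members in that of Myb as well, at 215 to 209 bases. Promoters of 6 of the 7 members were matched, all but Myc, with 3 for Mxi1. Their stretches held 54.8% (Mycn) to 81.2% (Myb) G and C, above the median of 52.4% of all stretches. The shares over all stretches given here were not matched for this content. The RUNX letters TGTGGT or TGCGGT were in 18.6% of all stretches and, of the members, in that of Max, from 106 bases before the start. The E-box CACGTG was in 6.02% of all stretches and, of the members, in that of Mxd4, at 219 to 214 bases. The GATA letters AGATAA or TGATAA were in 16.6% of all stretches and in none of the members' stretches. A match describes letters in this window and is no measured binding site.

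Between 20849853 and 54912950 reads lay behind the RPKM values of a library. Runx1 itself read 26.85 and 28.54 RPKM in wild-type GMP but 63.02 and 72.32 RPKM in Runx1-deleted GMP, a whole-gene value that does not check the loss of the floxed exon. Marker genes for granulocyte and monocyte progenitors summed to between 7976 and 12370 RPKM in the GMP libraries, to between 43.22 and 62.47 in the MEP libraries and to between 162.9 and 194.6 in XMP. Megakaryocyte markers summed to between 1456 and 1784 RPKM in XMP, above the 643.1 to 892.9 of the MEP libraries. Erythroid markers summed to between 294.0 and 391.0 RPKM in XMP and to between 945.9 and 1309 in MEP. Mast cell and basophil markers summed to between 633.3 and 693.1 RPKM in wild-type GMP and to between 283.1 and 293.0 after deletion, and to between 235.5 and 243.1 against 109.0 to 136.6 in MEP. Mature neutrophil markers summed to between 150.8 and 360.8 RPKM in wild-type GMP and to between 123.3 and 124.4 after deletion. Lymphoid markers summed to at most 1.861 RPKM in any library. The gap between the longest 10% and the shortest 10% of genes, a measure of how evenly long and short genes were read, was -1.17 on the log2 scale in wild-type MEP replicate 1 and between -0.53 and 0.65 in the other 9 libraries. Wild-type GMP ran in lanes 3 and 2 and Runx1-deleted GMP in lane 5, so that lane and genotype cannot be told apart in GMP.

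Differences were tested with limma on log2(RPKM + 1), and a gene was called at a Benjamini-Hochberg adjusted p under 0.05 over all genes tested. The log2 scale with a pseudocount of 1 understates changes of low genes. In GMP, Runx1 deletion gave 0 called members of 7, beside 3.15% of all genes called higher and 2.07% called lower. At an unadjusted p under 0.05 there were 2 members (Mycn and Mxd4), as for 22.8% of all genes. The libraries of 5 of the 7 members did not overlap between genotypes in GMP, beside 66.6% of all genes tested, so that such a separation is common with 2 libraries a group. After quantile normalization the split of all GMP calls moved from 343 higher and 226 lower to 306 and 306.

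In MEP, Runx1 deletion lowered 1 member, Mycn, and raised 0, beside 4.03% of all genes called lower and 3.97% called higher. For the effect in GMP minus that in MEP, 1 member was called higher, again Mycn, and 0 lower. Among all genes 0.954% were called higher and 0.789% lower. Against Runx1-deleted GMP, XMP had 1 member higher (Mycn) and 1 lower (Myc), beside 9.75% of all genes called higher and 9.90% called lower. Against Runx1-deleted MEP, the same 2 members were called in the same directions, beside 5.14% of all genes called higher and 2.60% called lower, and these 2 comparisons share the XMP libraries. Quantile normalization moved the split of all genes in the latter from 560 higher and 284 lower to 626 and 526. Between wild-type GMP and wild-type MEP, 1 member was lower in GMP (Mycn) and 0 higher, beside 9.83% of all genes called lower and 11.7% called higher.

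**Figure D1:**
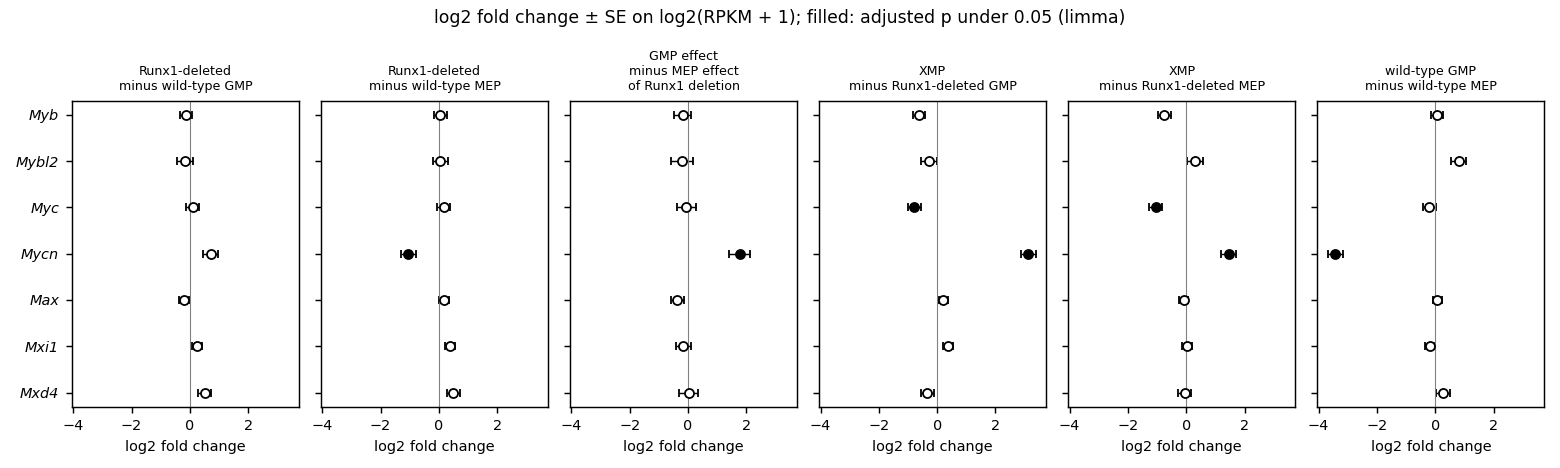
log2 fold change on log2(RPKM + 1) with its standard error for the 7 members (rows) in the 6 comparisons (panels), each from 2 libraries per group; filled points have an adjusted p under 0.05 by limma. Mycn is filled in 5 panels, from -3.44 between the wild-type gates to 3.13 between XMP and Runx1-deleted GMP, and Myc is filled in both XMP panels.

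Mycn, the MYC paralog best known from embryonic and neural progenitors, separated the gates. Its level was 2.156 and 2.531 RPKM in the wild-type GMP libraries, 3.669 and 5.503 in Runx1-deleted GMP, 35.26 and 35.13 for wild-type MEP, 22.06 and 12.23 in Runx1-deleted MEP, then 49.92 and 44.67 in XMP. No 2 of the 5 groups overlapped. The group means ran from 2.343 ± 0.266 RPKM (SD, n = 2) in wild-type GMP through 4.586 ± 1.3, 17.15 ± 6.95 and 35.19 ± 0.0911 to 47.3 ± 3.71 in XMP, a 20.2-fold span. Between 137 and 5424 reads lay behind each value.

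In wild-type cells Mycn was lower in GMP than in MEP by a log2 fold change of -3.44 ± 0.26 (SE; adjusted p = 2.41e-06 by limma). The 2 GMP libraries were far below the 2 MEP libraries. XMP exceeded Runx1-deleted GMP by 3.13 ± 0.26 on the log2 scale (adjusted p = 5.45e-06 by limma), with all 4 libraries apart. Both of these calls held under every alternative run for them.

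XMP also exceeded Runx1-deleted MEP in Mycn, by 1.47 ± 0.26 on the log2 scale (adjusted p = 0.00602 by limma). Mycn and the megakaryocyte markers, which Mycn follows across the gates in that both were highest in XMP and lowest in wild-type GMP, were measured in the same bulk samples, where more cells of a type and more RNA per cell cannot be told apart. The part of cell composition in the Mycn difference was not tested. Over 21 alternatives the adjusted p ran from 0.00278 to 0.0787 by limma. The call was lost without the filter on low values and without XMP replicate 1.

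Within MEP, Runx1 deletion lowered Mycn by a log2 fold change of -1.05 ± 0.26 (adjusted p = 0.0304 by limma). Both Runx1-deleted MEP libraries, at 22.06 and 12.23 RPKM, lay below both wild-type ones, and they differed from each other more than the wild-type pair did. This call held in 13 of 21 alternatives, whose adjusted p ran from 0.0092 to 0.323 by limma. It was lost without wild-type GMP replicate 1 or 2, wild-type MEP replicate 1 or Runx1-deleted MEP replicate 2, and without that last library the log2 fold change was -0.65.

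Within GMP, the Mycn difference pointed the other way, at 0.72 ± 0.26 on the log2 scale, and was not called (adjusted p = 0.134 by limma). Both Runx1-deleted libraries lay above both wild-type ones, at a level of a few RPKM. Megakaryocyte marker sums also rose with deletion in GMP, from between 40.46 and 47.42 to between 128.3 and 142.8 RPKM. In MEP these sums fell, from between 800.5 and 892.9 to between 643.1 and 765.1 RPKM. Of the 8 markers, 4 were called higher in GMP and 2 in MEP, beside 3.15% and 3.97% of all genes, and 0 lower. The part of cell composition in the 2 Mycn differences was not tested. The test of the difference between the genotype effects gave 1.77 ± 0.36 (adjusted p = 0.0341 by limma). That call held in 8 of 20 alternatives, with adjusted p from 0.0162 to 0.2 by limma. It was lost without any of wild-type GMP replicate 1 or 2, Runx1-deleted GMP replicate 1 or 2, wild-type MEP replicate 1, Runx1-deleted MEP replicate 2 and XMP replicate 1 or 2.

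Myc, the broadly expressed paralog that drives ribosome production and cell growth, was high in every group and lowest in XMP. It read 196.4 and 122.3 RPKM in wild-type GMP, 152.4 and 180.7 for Runx1-deleted GMP, 187.7 and 169.9 for wild-type MEP, 217.2 and 184.7 in Runx1-deleted MEP, then 93.23 and 99.24 in XMP. The 2 XMP libraries were below the other 8. Wild-type GMP spanned the widest range and overlapped the other 3 groups, while Runx1-deleted GMP and Runx1-deleted MEP did not overlap and were not compared by limma here. Group means were 159.3 ± 52.4, 166.5 ± 20.1, 178.8 ± 12.6, 201.0 ± 23.0 and 96.23 ± 4.25 RPKM (SD, n = 2) in the same order.

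XMP was lower in Myc than Runx1-deleted GMP by a log2 fold change of -0.78 ± 0.23 (adjusted p = 0.0336 by limma) and lower than Runx1-deleted MEP by -1.05 ± 0.23 (adjusted p = 0.0184 by limma). Each call held in 16 of 21 alternatives, with adjusted p from 0.00251 to 0.241 and from 0.00492 to 0.125 by limma. Each was lost without the filter on low values, or when either XMP replicate or either replicate of the group compared with it (Runx1-deleted GMP or MEP) was left out. Runx1 deletion gave Myc differences of 0.10 ± 0.23 in GMP and 0.16 ± 0.23 in MEP on the log2 scale, neither of them called (adjusted p = 0.821 and 0.702 by limma).

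Since both paralogs compete for MAX, their RPKM values were also added within each library. Mycn made up 1.09% and 2.03% of the Myc plus Mycn sum in wild-type GMP, 2.35% and 2.96% for Runx1-deleted GMP, 15.8% and 17.1% for wild-type MEP, 9.22% and 6.21% in Runx1-deleted MEP, then 34.9% and 31% in XMP. The order of the groups was thus that of Mycn itself, with the largest share in XMP, where Myc was low and Mycn high. The sum was 143.2 and 143.9 RPKM in XMP and ranged from 124.8 to 239.3 in the other libraries, with wild-type GMP replicate 2 the one library below XMP. These shares follow from the levels above and were not tested.

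**Figure D2:**
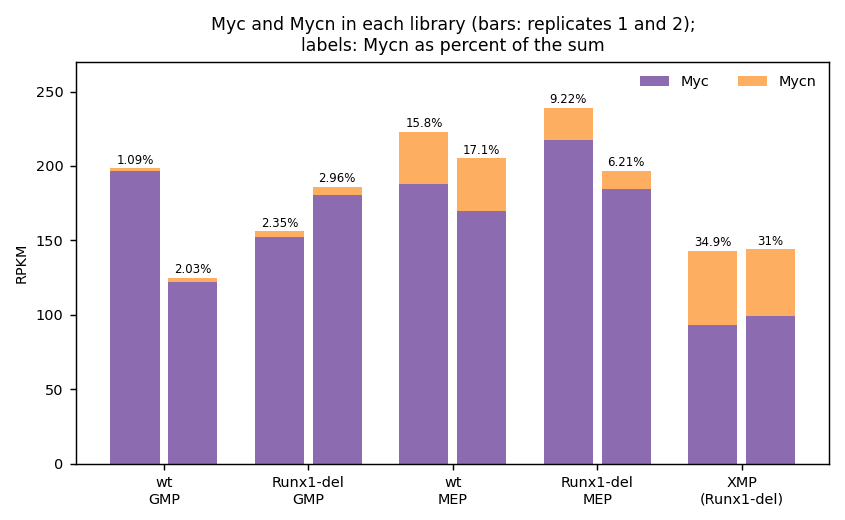
RPKM of Myc and Mycn stacked for each of the 10 libraries (bars, replicates 1 and 2 of each group from left to right), with the percent of the sum that is Mycn above each bar. The Mycn share is 1.09% to 2.96% in GMP, 6.21% to 17.1% in MEP and 31% to 34.9% in XMP.

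Max, the shared partner, was the most even member. It read 61.95 and 63.61 RPKM in wild-type GMP, 50.82 and 58.62 for Runx1-deleted GMP, 61.36 and 58.42 for wild-type MEP, 70.25 and 64.94 in Runx1-deleted MEP, then 67.73 and 59.07 in XMP. Its highest group mean was 1.24 times its lowest, and Max was called in none of the 6 comparisons. Deletion differences were -0.20 ± 0.16 in GMP and 0.17 ± 0.16 in MEP on the log2 scale (adjusted p = 0.474 and 0.558 by limma), and their difference of -0.37 ± 0.23 was not called either (adjusted p = 0.763 by limma). The Myc plus Mycn sum was 1.96 to 3.63 times Max over the 10 libraries, and 2.11 and 2.44 times in XMP.

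Mxi1, a MAX-binding repressor of the MXD class, had the lowest group mean of the members in MEP and XMP. Its level was 8.231 and 6.752 RPKM in wild-type GMP, 9.483 and 8.396 for Runx1-deleted GMP, 8.964 and 8.364 for wild-type MEP, 11.87 and 11.41 in Runx1-deleted MEP, then 12.18 and 11.38 in XMP. The 4 libraries of Runx1-deleted MEP and XMP lay above the other 6. The deletion difference in MEP was 0.39 ± 0.17 on the log2 scale and was not called (adjusted p = 0.22 by limma), and that in GMP was 0.23 ± 0.17 (adjusted p = 0.441 by limma). XMP differed from Runx1-deleted MEP by 0.02 ± 0.17 and from Runx1-deleted GMP by 0.36 ± 0.17 (adjusted p = 0.984 and 0.202 by limma).

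Mxd4, a related MAX-binding repressor that is induced in many cells as they stop dividing, was higher in both Runx1-deleted gates without passing the test. It read 22.18 and 18.83 RPKM in wild-type GMP, compared with 28.23 and 30.52 after deletion, and 13.94 and 20.34 in wild-type MEP against 22.19 and 25.95 in Runx1-deleted MEP. The XMP replicates read 19.23 and 27.63 RPKM, on either side of the Runx1-deleted MEP pair and below the Runx1-deleted GMP pair. The groups were apart in each gate, with log2 fold changes of 0.50 ± 0.22 in GMP and 0.49 ± 0.22 in MEP (adjusted p = 0.212 and 0.236 by limma). The MEP difference was called when wild-type MEP replicate 2 was left out, at 0.74 (adjusted p = 0.0375 by limma, the lowest of a range that reached 0.734). That fit rests on wild-type MEP replicate 1, the library with the largest length gap.

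Myb, required for adult blood formation, was the most abundant member on average. It read 191.1 and 244.2 RPKM in wild-type GMP, 202.1 and 190.9 for Runx1-deleted GMP, 177.7 and 238.8 for wild-type MEP, 197.5 and 229.9 in Runx1-deleted MEP, then 119.2 and 134.5 in XMP. As with Myc, both XMP libraries were below the other 8. The difference was -0.63 ± 0.21 from Runx1-deleted GMP and -0.75 ± 0.21 from Runx1-deleted MEP on the log2 scale (adjusted p = 0.0598 and 0.0567 by limma), which missed the threshold.

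Of 21 alternatives for each of these Myb comparisons, 8 passed it, with adjusted p from 0.00321 to 0.299 and from 0.0108 to 0.299 by limma. Runx1 deletion gave Myb differences of -0.14 ± 0.21 in GMP and 0.05 ± 0.21 in MEP (adjusted p = 0.721 and 0.913 by limma), with overlapping libraries in both gates. The GMP value turned to 0.21 after quantile normalization. The 2 wild-type gates differed by 0.07 ± 0.21 in Myb (adjusted p = 0.872 by limma), so its level did not separate these 2 gates as that of Mycn did.

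Mybl2, whose level follows the cell cycle, was highest in GMP. It read 27.05 and 26.14 RPKM in wild-type GMP, 23.93 and 23.21 for Runx1-deleted GMP, 13.26 and 16.70 for wild-type MEP, 21.65 and 10.94 in Runx1-deleted MEP, then 21.82 and 17.07 in XMP. The GMP libraries all exceeded the MEP and XMP libraries, and the 2 Runx1-deleted MEP libraries stood farther apart than the libraries of any other group. Wild-type GMP exceeded wild-type MEP by 0.80 ± 0.27 on the log2 scale, just short of a call (adjusted p = 0.0564 by limma), and 6 of 20 alternatives called it, with adjusted p from 0.0119 to 0.309 by limma. The deletion differences were -0.17 ± 0.27 in GMP and 0.05 ± 0.27 in MEP (adjusted p = 0.729 and 0.931 by limma).

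**Figure D3:**
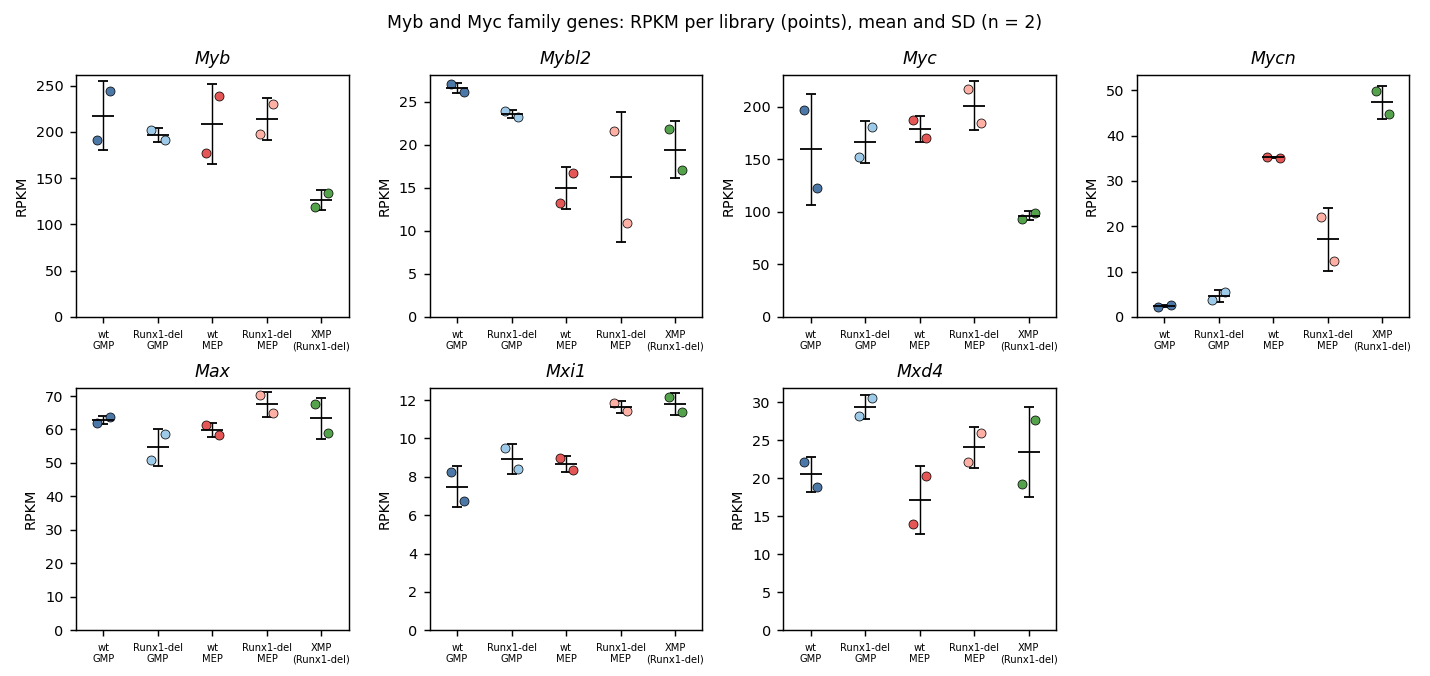
RPKM of each member (one panel each, linear axis from 0) in the 2 libraries of each group (points), with the group mean and SD (bars, n = 2). Mycn spans 2.156 to 49.92 RPKM, Myb and Myc are lowest in XMP, and Max stays between 50.82 and 70.25 RPKM.

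Taking all members, the mean over the 10 libraries placed Myb at the 97.6th, Myc at the 96.9th and Max at the 90.1st percentile of the genes tested. Mxd4 stood at 71.6, Mycn at 69.9, Mybl2 at 68.1 and Mxi1 at 46.6. The median log2 difference of the 7 members was 0.10 for deletion in GMP and 0.16 in MEP (all genes 0.05 and 0.03). It was -0.27 for XMP minus Runx1-deleted GMP and -0.05 for XMP minus Runx1-deleted MEP (all genes 0.05 and 0.05), and 0.07 between the wild-type gates (all genes -0.06). Non-coding or predicted genes overlap Myb (Gm26577, 559 bp), Mxi1 (Gm10197, 194 bp) and Mxd4 (Gm42846, 514 bp) on the opposite strand in GENCODE for GRCm38, and the strand used in counting is not given in the sources used here, so their reads cannot be told apart there.

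In the authors' deposited table, Baggerley's test gave Mycn an FDR-corrected p of 5.16e-12 between wild-type MEP and wild-type GMP. In the authors' deposited table, the corrected p of Mycn was 0.637 for deletion in MEP and 7.2e-05 between XMP and Runx1-deleted MEP. For Myb, which limma did not call, the authors' deposited table gave 8.87e-05 between XMP and Runx1-deleted GMP and 2.47e-06 between XMP and Runx1-deleted MEP. For Myc, the authors' deposited table gave 0.000158 and 6.53e-11 in those comparisons. The authors' test and limma thus differed on Mycn in MEP, called by limma alone, and on Myb in XMP, called by the authors' test alone.

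Other genes of the network comprised 9, of which 7 were tested, since Mybl1 and Mlxipl were under the filter. Mxd1, another MAX-binding repressor, which rises as myeloid cells mature, read 4.377 and 4.950 RPKM in wild-type GMP, 5.982 and 6.996 for Runx1-deleted GMP, 4.893 and 5.386 for wild-type MEP, 10.12 and 10.05 in Runx1-deleted MEP, then 16.65 and 14.24 in XMP. It was highest in XMP, where no library overlapped another group. Mxd1 rose with deletion in MEP by 0.85 ± 0.18 on the log2 scale (adjusted p = 0.0141 by limma), a call held in 17 of 21 alternatives and lost without either Runx1-deleted MEP replicate (adjusted p over the alternatives from 0.00482 to 0.18). Mxd1 was also higher in XMP than in Runx1-deleted GMP, by 1.13 ± 0.18 (adjusted p = 0.000713 by limma), under all 21 alternatives. Its other differences were not called, including 0.56 ± 0.18 between XMP and Runx1-deleted MEP (adjusted p = 0.0845 by limma).

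Mxd3, the MXD protein expressed in S phase, was highest in XMP too, at 11.66 and 8.813 RPKM, compared with 3.953 and 5.040 for Runx1-deleted GMP and 4.679 and 2.746 in Runx1-deleted MEP. The wild-type groups lay between, at 6.800 and 5.354 in GMP and 7.932 and 6.256 in MEP. XMP exceeded Runx1-deleted GMP by 1.03 ± 0.25 and Runx1-deleted MEP by 1.27 ± 0.25 on the log2 scale (adjusted p = 0.0117 and 0.0102 by limma). Each call held in 18 of 21 alternatives, with adjusted p of at most 0.123 and 0.102, and each was lost without XMP replicate 1. The former was also lost without Runx1-deleted GMP replicate 1 and the latter without Runx1-deleted MEP replicate 2.

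Mycl1, the third MYC paralog, was read in GMP and barely elsewhere. Wild-type GMP had 1.931 and 1.029 RPKM of it, Runx1-deleted GMP 0.6303 and 1.091, and between 0.02703 and 0.1444 RPKM in the 6 MEP and XMP libraries. Wild-type GMP exceeded wild-type MEP by 1.19 ± 0.18 on the log2 scale (adjusted p = 0.000636 by limma), opposite in direction to Mycn. Only GMP libraries reached 1 RPKM, so Mycl1 passed the filter through the gate where it was high. This favours calls of a higher level in GMP. XMP was lower than Runx1-deleted GMP by -0.70 ± 0.18 (adjusted p = 0.019 by limma), a call lost without Runx1-deleted GMP replicate 2 or either XMP replicate (adjusted p over the alternatives from 0.00317 to 0.179). Mnt, Mga, Mlx and Mlxip were called in none of the 6 comparisons.

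**Figure D4:**
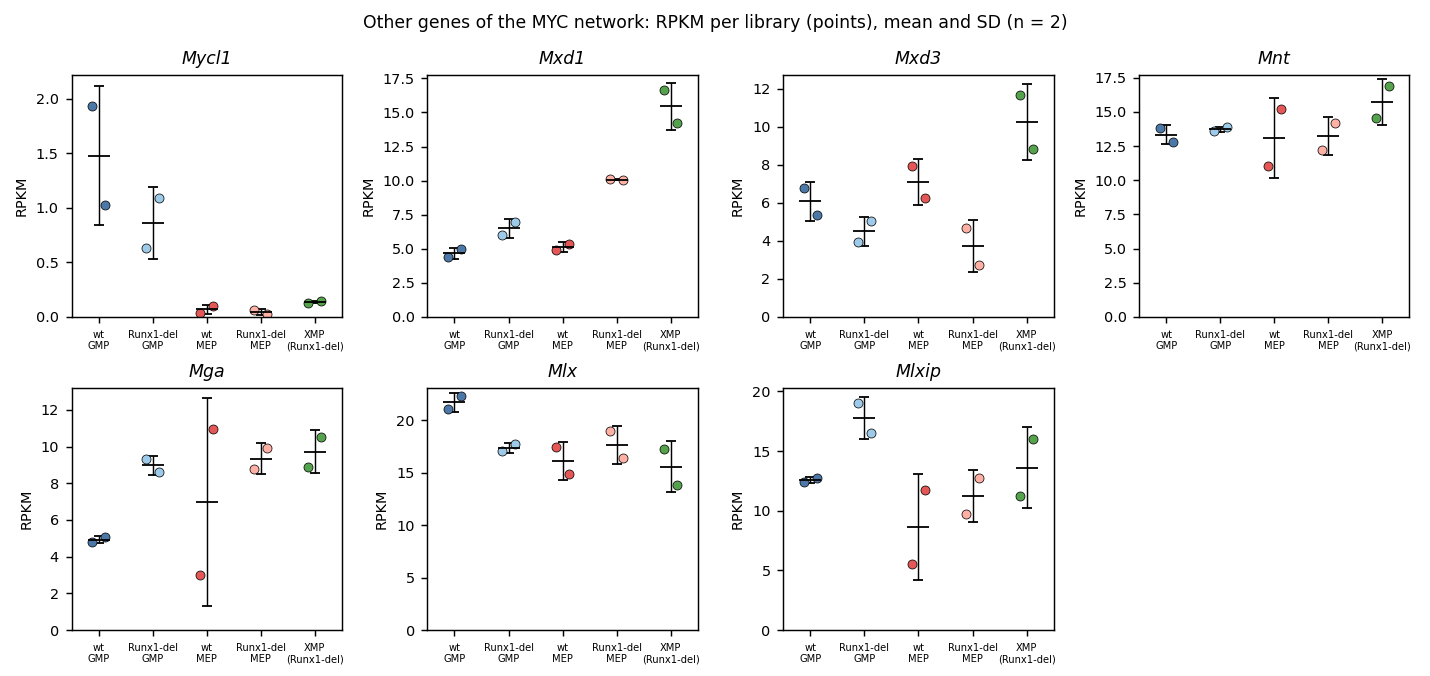
RPKM of 7 further genes of the MYC network (panels, linear axes from 0) in the 2 libraries of each group (points), with group mean and SD (bars, n = 2). Mxd1 and Mxd3 are highest in XMP, at means of 15.44 and 10.24 RPKM, and Mycl1 is read mainly in GMP.

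Few genes for proteins that work with the family were called. Of 21 tested cofactors, such as Trrap, Ep300 and Sin3a, 0 were called in any of the 6 comparisons, and of 12 genes that set MYC stability, such as Fbxw7 and Huwe1, 0 were called by limma. At an unadjusted p under 0.05 there were 0 to 4 genes of each of these lists in a comparison, beside 10.1% to 31.5% of all genes. The share of all genes called in either direction ran from 0.789% (difference of effects, lower) to 11.7% (wild-type gates, higher). Among 12 genes of the MuvB and DREAM complexes 1 was called in 1 comparison: Foxm1, the mitotic forkhead factor, was higher in XMP than in Runx1-deleted MEP by 1.08 ± 0.26 (adjusted p = 0.0259 by limma). In that comparison 5.14% of all genes were called higher and 2.60% lower. Foxm1 read 20.20 and 16.74 RPKM in XMP and 9.864 and 6.728 in Runx1-deleted MEP. The call was lost without Runx1-deleted MEP replicate 2 or either XMP replicate (adjusted p over the alternatives from 0.00524 to 0.181).

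Textbook MYC-induced growth genes, such as those for nucleolar proteins and nucleotide synthesis, numbered 30, all tested. Few passed the test singly. In XMP minus Runx1-deleted MEP, 28 of the 30 had a difference below 0, with a median of -0.49, where 43.2% of all genes were below 0 and the median of all was 0.05. By limma 1 was called lower (Tfrc) and 0 higher, beside 2.60% and 5.14% of all genes, and 12 had an unadjusted p under 0.05, where 19.8% of all genes did. Without Runx1-deleted MEP replicate 1 the median was -0.25. In XMP minus Runx1-deleted GMP, 27 of 30 were below 0, with a median of -0.26, where 44.3% of all genes were below 0, and 1 was called lower (Hk2) and 0 higher, beside 9.90% and 9.75% of all genes. At an unadjusted p under 0.05 there were 5 of the 30, where 28.2% of all genes passed. The median in this comparison was -0.46 without XMP replicate 1 and -0.17 without XMP replicate 2. These 2 comparisons share the XMP libraries. For deletion in GMP the median was -0.12 with 0 genes called, beside 3.15% of all genes higher and 2.07% lower. For deletion in MEP it was 0.01 with 1 called higher, beside 3.97% higher and 4.03% lower. At an unadjusted p under 0.05 by limma there were 5 and 2 genes, beside 22.8% and 22.1% of all genes. Between the wild-type gates the median was -0.11. These 3 medians were near 0 and changed sign with the setting: that in GMP was 0.11 after quantile normalization, that in MEP ran from -0.27 without Runx1-deleted MEP replicate 1 to 0.20 without replicate 2, and that between the gates was 0.03 without wild-type MEP replicate 2.

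Hk2, a hexokinase of glycolysis, read 18.75 and 19.01 RPKM in Runx1-deleted GMP and 5.385 and 4.783 in XMP, a log2 fold change of -1.71 ± 0.26 (adjusted p = 0.000641 by limma). It separated the wild-type gates as well, with GMP above MEP by 1.82 ± 0.26 (adjusted p = 0.000393 by limma). Tfrc, the transferrin receptor, which erythroid cells carry in large amounts, read 37.93 and 44.78 RPKM in Runx1-deleted MEP and 15.21 and 15.15 in XMP, a log2 fold change of -1.38 ± 0.36 (adjusted p = 0.0415 by limma). Erythroid marker sums were lower in XMP too, and their part in the Tfrc value was not tested. Tfrc also rose with deletion in MEP by 1.63 ± 0.36 (adjusted p = 0.0198 by limma), from 7.678 and 20.55 RPKM. The lower of these was wild-type MEP replicate 1, the library with the largest length gap. With deletion in MEP, erythroid marker sums fell from between 1242 and 1309 to between 945.9 and 946.8 RPKM. Of 8 erythroid markers, 3 were called higher and 0 lower there, beside 3.97% and 4.03% of all genes. Their part in the Tfrc rise was not tested. The Tfrc call in XMP was lost when any Runx1-deleted MEP, XMP or wild-type GMP replicate was left out (adjusted p over the alternatives from 0.00525 to 0.269), and that in MEP without wild-type MEP replicate 1 or either Runx1-deleted MEP replicate (from 0.00085 to 0.176).

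Per library, the median deviation of the 30 genes from their means over the 10 libraries was -0.23 and -0.41 in the 2 XMP libraries on the log2 scale, below the -0.07 to 0.37 of the other 8. Myc itself deviated by -0.72 and -0.64 in XMP, and its next lowest library, wild-type GMP replicate 2 at -0.34, had a list median of 0.02. The 2 lowest libraries of Myc and of the list were thus the same, while the order among the other 8 differed. The points share gates and libraries, and the list was chosen with earlier results of these data known.

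MYC-repressed genes, which include cell cycle inhibitors, numbered 8, of which 7 were tested. They moved in both directions. For deletion in GMP 0 were called higher and 1 lower (Cdkn1a), and for deletion in MEP 1 higher (Ndrg2) and 3 lower (Cdkn1c, Ndrg1 and Gadd45b), beside 3.15% of all genes higher and 2.07% lower in GMP, and 3.97% and 4.03% in MEP. Cdkn1c read 1.288 and 1.61 RPKM in wild-type MEP and at most 0.7875 in any other library. It passed the filter through wild-type MEP alone, which favours calls of Cdkn1c as lower than in that group. The Cdkn1a call in GMP was lost on leaving out either replicate of wild-type or Runx1-deleted GMP (adjusted p over the alternatives from 0.00678 to 0.298 by limma). Of these MEP calls, that of Gadd45b held in 11 of 21 alternatives (adjusted p from 0.00637 to 0.232 by limma), that of Ndrg1 in 12 of 21 (from 0.00776 to 0.299) and that of Cdkn1c in 17 of 20 (from 0.0116 to 0.208). Each was lost without 1 or more of the libraries: Gadd45b without wild-type MEP replicate 1, either Runx1-deleted MEP replicate or either XMP replicate, Ndrg1 without replicate 1 of wild-type MEP or Runx1-deleted MEP or either replicate of wild-type GMP, and Cdkn1c without Runx1-deleted MEP replicate 2. In XMP, 3 were higher than in Runx1-deleted GMP (Ndrg2, Ndrg1 and Cdkn1b) and 1 lower (Gadd45b), beside 9.75% and 9.90% of all genes. In XMP, 3 were also higher than in Runx1-deleted MEP (Ndrg1, Cdkn1a and Gadd45b) and 1 lower (Gadd45a), beside 5.14% and 2.60% of all genes. Against Runx1-deleted GMP, Cdkn1b held in 16 of 21 alternatives (adjusted p from 0.00192 to 0.2 by limma) and was lost on leaving out either replicate of either group, and Ndrg1 held in 17 of 21 (from 0.00225 to 0.154) and was lost without replicate 2 of either group. Against Runx1-deleted MEP, Cdkn1a held in 17 of 21 (from 0.00258 to 0.109) and Gadd45b in 14 of 21 (from 0.00771 to 0.198). Both were lost on leaving out either replicate of either group, and Gadd45b also without Runx1-deleted GMP replicate 2. Between the wild-type gates 2 were higher and 3 lower in GMP, beside 11.7% and 9.83% of all genes.

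Ndrg1, a stress-responsive gene, was higher in XMP, at 59.68 and 112.5 RPKM, than in either other Runx1-deleted group, at 39.67 and 29.11 in GMP and 16.33 and 29.53 in MEP. The log2 fold changes were 1.25 ± 0.31 and 1.85 ± 0.31 (adjusted p = 0.0153 and 0.00508 by limma). The former was lost without Runx1-deleted GMP replicate 2 or XMP replicate 2 (adjusted p over the alternatives from 0.00225 to 0.154), and the latter held in 19 of 21 alternatives (from 0.00241 to 0.0937). Ndrg2, its relative, rose with deletion in MEP from 3.924 and 4.411 to 13.33 and 20.49 RPKM, by 1.77 ± 0.23 on the log2 scale (adjusted p = 0.00082 by limma), under all 21 alternatives. Cdkn1a, which encodes the inhibitor p21, fell with deletion in GMP from 9.673 and 10.18 to 4.404 and 5.843 RPKM, by a log2 fold change of -0.84 ± 0.18 (adjusted p = 0.0217 by limma), a call lost when any of these 4 libraries was left out (adjusted p over the alternatives from 0.00678 to 0.298).

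Textbook MYB targets in blood numbered 14, all tested. They separated the gates: 9 were higher and 1 lower in wild-type GMP than for wild-type MEP, beside 11.7% and 9.83% of all genes, and their median was 2.31 (all genes -0.06). Myb itself differed by 0.07 and was not called. All 10 markers of granulocyte and monocyte progenitors, Mpo, Elane and Prtn3 among them, were called higher in the same comparison. XMP had 8 lower and 1 higher than Runx1-deleted GMP, beside 9.90% and 9.75% of all genes, with a median of -2.04 (all genes 0.05). Of the 8, Mpo and Elane (granule proteins) and Prtn3 are also on the list of granulocyte and monocyte progenitor markers, which fell in 10 of 10 in that comparison, so the part of the gate in these values was not tested apart. Mpo read 3743 and 4546 RPKM in Runx1-deleted GMP and 76.93 and 53.82 in XMP, and Gfi1, a repressor needed for neutrophils, read 28.72 and 27.27 against 0.5508 and 0.3526 (adjusted p = 8.19e-08 for each by limma). Gfi1 read at most 0.5508 RPKM in the MEP and XMP libraries, so it passed the filter through GMP alone. Lmo2, an adaptor of stem cell and erythroid complexes, was the gene that was higher, by 1.08 ± 0.17 (adjusted p = 0.000698 by limma).

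Against Runx1-deleted MEP, XMP had 3 MYB targets higher (Mpo, Elane and Prtn3) and 0 lower, beside 5.14% and 2.60% of all genes. All 3 are granulocyte and monocyte progenitor markers, of which 9 of 10 were called higher in the same comparison. Runx1 deletion lowered 2 MYB targets and raised 0 in each gate, beside 2.07% of all genes lower in GMP and 4.03% in MEP. With deletion, 3 of 10 granulocyte and monocyte progenitor markers were called lower and 1 higher in each gate, Elane among the 3 in GMP, and 3 of 6 mast cell and basophil markers were called lower in GMP and 4 of 6 in MEP. The part of these cells in the MYB target values was not tested. Bcl2, a survival gene, fell in both. It went from 15.93 and 17.45 to 6.877 and 6.522 RPKM in GMP, a log2 fold change of -1.20 ± 0.25 (adjusted p = 0.016 by limma), and from 6.431 and 12.32 to 4.232 and 3.948 in MEP, one of -0.97 ± 0.25 (adjusted p = 0.0354 by limma). The GMP call was lost when any of the 4 GMP libraries was left out (adjusted p over the alternatives from 0.00023 to 0.165), and the MEP call held in 10 of 21 alternatives (from 0.000446 to 0.238), being lost when any library other than the wild-type MEP pair was left out. Cxcr4, the marrow homing receptor, fell in MEP from 25.65 and 30.17 to 11.32 and 6.278 RPKM, by a log2 fold change of -1.61 ± 0.28 (adjusted p = 0.00502 by limma, and from 0.00356 to 0.13 over 21 alternatives, of which 18 called it). Elane, neutrophil elastase, fell in GMP by a log2 fold change of -1.15 ± 0.25 (adjusted p = 0.0245 by limma), a call lost when any of the 4 GMP libraries was left out (adjusted p over the alternatives from 0.00137 to 0.229).

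Late cell cycle genes known as targets of MYBL2 numbered 16, all tested. In XMP minus Runx1-deleted MEP, 16 of 16 had a difference above 0, with a median of 0.74, where 43.2% of all genes were below 0 and the median of all was 0.05. By limma 2 were called higher (Kif23 and Foxm1) and 0 lower, beside 5.14% and 2.60% of all genes, and 14 had an unadjusted p under 0.05, where 19.8% of all genes did. Mybl2 itself differed by 0.30 ± 0.27 (adjusted p = 0.628 by limma). Against Runx1-deleted GMP, 13 of 16 were above 0, with a median of 0.23 (all genes 0.05), where 44.3% of all genes were below 0. By limma 0 were called, beside 9.75% of all genes higher and 9.90% lower. At an unadjusted p under 0.05 there was 1, where 28.2% of all genes passed. For deletion in MEP 13 of 16 were below 0, with a median of -0.28, where 46.7% of all genes were below 0. For the difference of the deletion effects 15 of 16 were above 0, with a median of 0.26, where 49.2% of all genes were below 0. By limma 0 were called in either, beside 4.03% and 0.789% of all genes lower and 3.97% and 0.954% higher. At an unadjusted p under 0.05 there were 2 and 0, beside 22.1% and 10.1% of all genes. Between the wild-type gates 13 of 16 were above 0, with a median of 0.23, and Kif23 was called higher in GMP (0.82 ± 0.25, adjusted p = 0.0353 by limma), a call held in 12 of 20 alternatives (from 0.00607 to 0.212) and lost, of single libraries, without either Runx1-deleted GMP replicate, XMP replicate 2 or the first replicate of wild-type GMP or wild-type MEP. Between the wild-type gates 55.9% of all genes were below 0 and 11.7% were called higher in GMP. Kif23, a kinesin of cell division, read 7.165 and 6.022 RPKM in XMP and 3.072 and 2.131 in Runx1-deleted MEP, a log2 fold change of 1.08 ± 0.25 (adjusted p = 0.0221 by limma). The Kif23 call was lost without Runx1-deleted MEP replicate 2 or either XMP replicate (adjusted p over the alternatives from 0.00237 to 0.161).

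Single libraries bear on these medians. Without Runx1-deleted MEP replicate 2, the median was 0.35 for XMP minus Runx1-deleted MEP, 0.03 for deletion in MEP and -0.15 for the difference of effects. Leaving out each library in turn gave medians from 0.35 to 1.09 for XMP minus Runx1-deleted MEP, from 0.06 (without XMP replicate 1) to 0.39 for XMP minus Runx1-deleted GMP, from -0.71 to 0.03 for deletion in MEP, from -0.15 to 0.59 for the difference of effects, and from 0.06 (without wild-type GMP replicate 1) to 0.44 between the wild-type gates. The median deviation of the 16 genes was -0.79 on the log2 scale in Runx1-deleted MEP replicate 2, and between -0.23 and 0.59 in the other 9 libraries. Mybl2 was also lowest in that library, at -0.78, against 0.15 in Runx1-deleted MEP replicate 1, whose list median was -0.08. XMP replicate 1 had the highest list median, 0.59, at a Mybl2 deviation of 0.16, and the highest Mybl2 deviation, 0.45 in wild-type GMP replicate 1, came with a list median of 0.28.

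**Figure D5:**
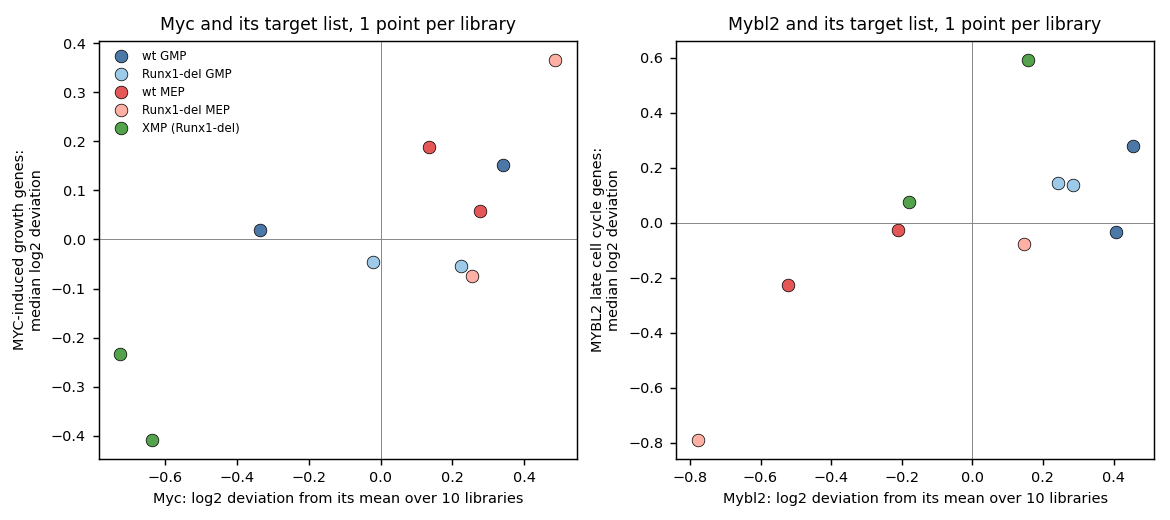
Each point is 1 of the 10 libraries. The x axis gives the log2 deviation of Myc (left) or Mybl2 (right) from its mean over the libraries, and the y axis the median log2 deviation of the 30 MYC-induced growth genes (left) or the 16 MYBL2 late cell cycle genes (right). The 2 XMP libraries are lowest in both values on the left, and Runx1-deleted MEP replicate 2 is lowest in both on the right.

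The genes most like each member were taken by Pearson correlation over the 10 libraries among 7781 genes, as a description, since the libraries share gates. Mycn was most like Trim47 (r = 0.982), Zfpm1 (r = 0.974), which encodes the GATA1 cofactor FOG1, and Usp18 (r = 0.970). Zfpm1 had group means of 11.61 RPKM in wild-type GMP, 19.13 for Runx1-deleted GMP, 120.6 for wild-type MEP, 100.6 for Runx1-deleted MEP, then 152.3 in XMP, the same order of groups as Mycn. Myc was most like Dedd2 (r = 0.992), Trmt1 (r = 0.977), a tRNA methyltransferase, and Ppan (r = 0.943), a ribosome assembly factor. Mybl2 was most like the replication-linked genes Uhrf1 and Rrm2 (r = 0.976 for each) and Slc35e1 (r = 0.965).

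Myb had 1 gene with r over 0.9, Nmd3 (r = 0.937), followed by Scd2 (r = 0.887) and Fam117b (r = 0.870), whereas 123 genes passed that level for Mycn. Mxi1 was most like Clec1b (r = 0.953), a platelet receptor gene with group means of 0.235 RPKM in wild-type GMP and 69.32 in XMP. Chst1 (r = 0.950) and Whamm (r = 0.946) followed. Mxd4 was most like Dstyk (r = 0.946), Ap4m1 (r = 0.936) and Cabin1 (r = 0.932). Max had 0 genes over 0.9, its nearest being Kcmf1 (r = 0.875), Cog8 (r = 0.863) and Psmf1 (r = 0.861). Among the members themselves, the highest r was 0.631 between Mycn and Mxi1 and the next 0.620 between Myb and Myc, and Myc and Mycn had an r of -0.30.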

How the data were processed

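The deposited table gives RPKM for 23240 genes in 10 libraries, computed by the authors, with p-values of Baggerley's test and their FDR-corrected values, per the file headers. Per the submitters' processing notes, mm9 was the build; aligner, counter and counting strand: not given in the sources used here. Libraries were made with a TruSeq V2 or a NEBNext Ultra kit per the labels' protocols, with no record of which library had which.

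The 10905 genes that reached 1 RPKM in 2 or more libraries were transformed to log2(RPKM + 1). A model with 5 group means was fitted to the 10 libraries together in limma 3.58.1 (R 4.3.3) with a mean-variance trend. Calls were made at a Benjamini-Hochberg adjusted p under 0.05. Whole reads per gene were recovered from the RPKM steps within 0.01 read for all 10905 genes, which gave depths of 20849853 to 54912950 reads. The scripts were tested on simulated data. The members and gene lists were chosen with earlier results of these data known. Named genes were all members, up to 2 called list genes per direction and comparison by smallest p, and the 3 genes most correlated with each member over the libraries (mean of at least 5 RPKM); further called list genes are named only where they make up a count of 5 or fewer, and these names were chosen after their values were seen. Symbols of 4 list genes were matched to older ones (Mycl to Mycl1, for example). Protein sequences were not used here.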

Additional observations from a re-analysis of the deposited data

Results flagged for a closer look

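The Runx1 effect on Mycn differed between GMP and MEP by 1.77 ± 0.36 on the log2 scale (adjusted p = 0.0341 by limma). Both Runx1-deleted GMP libraries lay above, and both Runx1-deleted MEP libraries below, their wild-type pair. Megakaryocyte marker sums moved in the same directions, and the part of cell composition was not tested. For Max, both Runx1-deleted libraries lay below wild type in GMP and above it in MEP, a difference of -0.37 that drew attention for its opposite directions alone, and whose test was not passed (adjusted p = 0.763 by limma).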

How the results depend on the processing

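Of 861 member fold changes under alternative settings, 767 kept their direction and their side of the threshold, 32 lost a call, 25 gained one and 37 changed sign, none of the last in a called value. The Mycn calls between the wild-type gates and between XMP and Runx1-deleted GMP held throughout. The number of members called for deletion in GMP was 1 with only the groups compared (0 as reported). For deletion in MEP it was 0 with no filter, only the groups compared, array weights or lanes 4 and 5 alone, and 0 to 2 when single libraries were left out. For the difference of the 2 effects it was 0 with no filter, a pseudocount of 0.1, only the groups compared or array weights, and 0 to 1 without single libraries. For XMP minus Runx1-deleted GMP it was 1 with no filter, 4 with array weights and 1 to 3 without single libraries; Myb was called besides Myc and Mycn with only the groups compared, array weights, lanes 4 and 5 alone, the length trend removed, both blocks or without either wild-type MEP replicate. For XMP minus Runx1-deleted MEP it was 0 with no filter and 0 to 3 without single libraries, and Myb was called besides Myc and Mycn with no trend, array weights, lanes 4 and 5 alone, the length trend removed, both blocks or without either wild-type MEP replicate. Between the wild-type gates it was 2 with quantile normalization, only the groups compared, the length trend removed or a replicate block, and 1 to 2 without single libraries. The cause was not tested.

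Values that changed sign lay between -0.41 and 0.27 on the log2 scale. With quantile normalization they were 0.21 (Myb, deletion in GMP), -0.030 (Mybl2, deletion in MEP), 0.033 (Myc, difference of effects), -0.058 (Mxi1, XMP minus Runx1-deleted MEP) and -0.14 (Myb, wild-type gates). With lanes 4 and 5 alone they were -0.16 (Myb) and -0.11 (Mybl2) for deletion in MEP. With the length trend removed they were -0.057 (Myb) and -0.052 (Mybl2) for deletion in MEP, and -0.072 (Mxi1) and 0.019 (Mxd4) for XMP minus Runx1-deleted MEP. Leaving out single libraries gave, for deletion in GMP, -0.31 to 0.039 (Myb) and -0.24 to 0.44 (Myc), and for deletion in MEP, -0.16 to 0.26 (Myb) and -0.41 to 0.51 (Mybl2). For the difference of effects it gave -0.40 to 0.027 (Myb), -0.68 to 0.25 (Mybl2), -0.41 to 0.27 (Myc) and -0.24 to 0.27 (Mxd4). For XMP minus Runx1-deleted MEP it gave -0.16 to 0.77 (Mybl2), -0.19 to 0.0039 (Max), -0.030 to 0.061 (Mxi1) and -0.31 to 0.20 (Mxd4), and between the wild-type gates -0.14 to 0.28 (Myb) and -0.54 to 0.14 (Myc).

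Deviations of same-numbered replicates gave r from -0.47 to 0.78 over 10 pairs of groups, median -0.11, with 3 above 0. These values do not settle whether the numbers pair the libraries. Sets by library number (25 to 29 and 30 to 34, which hold 1 library of each group) gave r from -0.15 to 0.78, median 0.32, with 7 of 10 above 0, and no label says that they mark a batch. These sets order the libraries as the replicate numbers do, except in Runx1-deleted GMP, so only the r values that involve that group differ, by sign. Pairing of the libraries is therefore not excluded, and the reported fit has no term for it. With the replicate block, Myb was called lower in XMP than in both Runx1-deleted groups (adjusted p = 0.034 and 0.0341 by limma) and Mybl2 higher in wild-type GMP (adjusted p = 0.0486 by limma). With the library number block the same Myb differences had adjusted p = 0.0112 and 0.0131 by limma, and no other member's call changed.

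Counts of all genes called moved by over 1.5 times in some settings. Against 569 for deletion in GMP, a mean of at least 5 RPKM gave 196, only the groups compared 1925, array weights 2023 and leaving out libraries 233 to 1729. Against 872 for deletion in MEP these were 412, 340, 219 and 361 to 3427, and 550 with no filter. Against 190 for the difference, a mean of at least 5 RPKM gave 63, array weights 65, a pseudocount of 0.1 gave 80 and leaving out libraries 55 to 475. Against 2143 for XMP minus Runx1-deleted GMP, a mean of at least 5 RPKM gave 1200, only the groups compared 3216, array weights 3679 and leaving out libraries 1381 to 2790. Against 844 for XMP minus Runx1-deleted MEP, no filter gave 486, array weights 1501, lanes 4 and 5 alone 1542 and leaving out libraries 305 to 1462. Against 2352 between the wild-type gates, a mean of at least 5 RPKM gave 1380, array weights 1325 and leaving out libraries 1636 to 3315.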
